A study of Canis lupus familiaris with 26 samples.

Results

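Solute carrier (SLC) and ATP-binding cassette (ABC) genes encode the transporters that move nutrients, ions, metals, lipids and signaling molecules across cell membranes. The 109 transporter genes described here are those whose symbol begins with SLC, SLCO or ABC (subfamilies A to G) among the 4888 genes on the lists of differentially expressed genes (DEGs) of a study of the canine corpus luteum (CL). They comprised 102 SLC genes and 7 ABC genes, out of 19856 genes counted in each sample. For 4355 of the listed genes the lists give a symbol, so transporters listed without one were not included. On the list of the contrast of mature over early control CL stood 73 of the 109 genes, and for 60 of them it was the only list. The contrast of day 20 treated over day 20 control had listed 34 (23 of them on no other list), and that of day 30 had listed 16 (13 of them on no other list). None came from the day 5 or day 10 contrasts, and 13 were on 2 or more lists. Because the members were chosen by these contrasts, their values in a contrast that listed them are a description and were not tested.

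SLC proteins are carriers that exchange or cotransport their substrates, often driven by the sodium or proton gradient. ABC proteins are pumps fueled by ATP that export lipids, drugs and other compounds, and some act inside mitochondria or peroxisomes. The CL makes progesterone from cholesterol, so luteal cells import lipids and fuel, and transporters for glucose, fatty acids, vitamin C and prostaglandins are known in this tissue.

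The study followed the canine CL through the first part of diestrus and asked what changes when prostaglandin synthesis by COX2 is inhibited. The 26 RNA-Seq libraries analysed were made from whole CL tissue of mixed-breed bitches that differed in age, 1 library per animal, with 13 animals in each arm. Some sequenced samples of days 10 and 30 had been set aside by the authors as outliers before their contrasts and were not analysed here. Treated dogs received the COX2 inhibitor firocoxib at 10 mg/kg orally every day from ovulation until the ovaries were removed on days 5, 10, 20 or 30, with 4 animals on day 5 and 3 on each later day. Control dogs were operated on the same days with the same group sizes, and had received a placebo per the treatment protocol, while the design text calls them untreated. Days 5 and 10 are called early CL and days 20 and 30 mature CL. Gene counts per library totalled 12831896 to 22658950 reads, of which the transporter genes took from 0.327% to 0.587% of them. Levels are given as CPM, the reads of a gene scaled to a common library total after TMM normalization. They are not divided by transcript length, so levels were compared between samples and not between genes. Within a group, values are listed in the order of the replicate numbers, namely 1, 3, 4 and 5 for day 5 control, 2, 3 and 4 for day 10 control, 1, 2 and 3 for day 20 control and 2, 3 and 4 for day 30 control. In the treated groups these numbers are 1, 2, 4 and 5 on day 5, 1, 4 and 5 on day 10, 2, 3 and 4 on day 20 and 2, 4 and 5 on day 30.

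Summed levels of marker genes were used to check the tissue. The 7 markers of steroidogenic luteal cells summed to between 480 and 4998 CPM, and were detected in every sample. The lowest sum was in the day 20 treated group (480 to 2642 CPM, against 3102 to 4998 CPM in day 20 control), where 6 of the 7 markers had the lower mean. In the same group the 8 oocyte markers summed to between 156 and 273 CPM, against 4.57 to 9.27 CPM in day 20 control. Sums for 6 fibroblast markers were 9690 to 13905 CPM in day 20 treated and 2883 to 7269 CPM in day 20 control samples, and 5 of the 6 had the higher mean in treated samples. For 5 smooth muscle markers the corresponding sums were 390 to 823 CPM and 134 to 270 CPM. The 10 myeloid markers summed to 206 to 272 CPM in day 20 treated and 140 to 184 CPM in day 20 control samples, with 9 of the 10 higher in treated samples. FSHR, chosen as a granulosa cell marker, had 249 to 617 CPM in day 20 treated and 1712 to 2403 CPM in day 20 control samples. In control CL it had 490 to 2014 CPM early and 1395 to 2403 CPM mature, so FSHR is not read here as a measure of granulosa cells. Whether these differences take part in the transporter differences of day 20 was not tested. In bulk tissue, fewer cells of a type and less RNA per cell cannot be told apart.

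**Figure D1:**
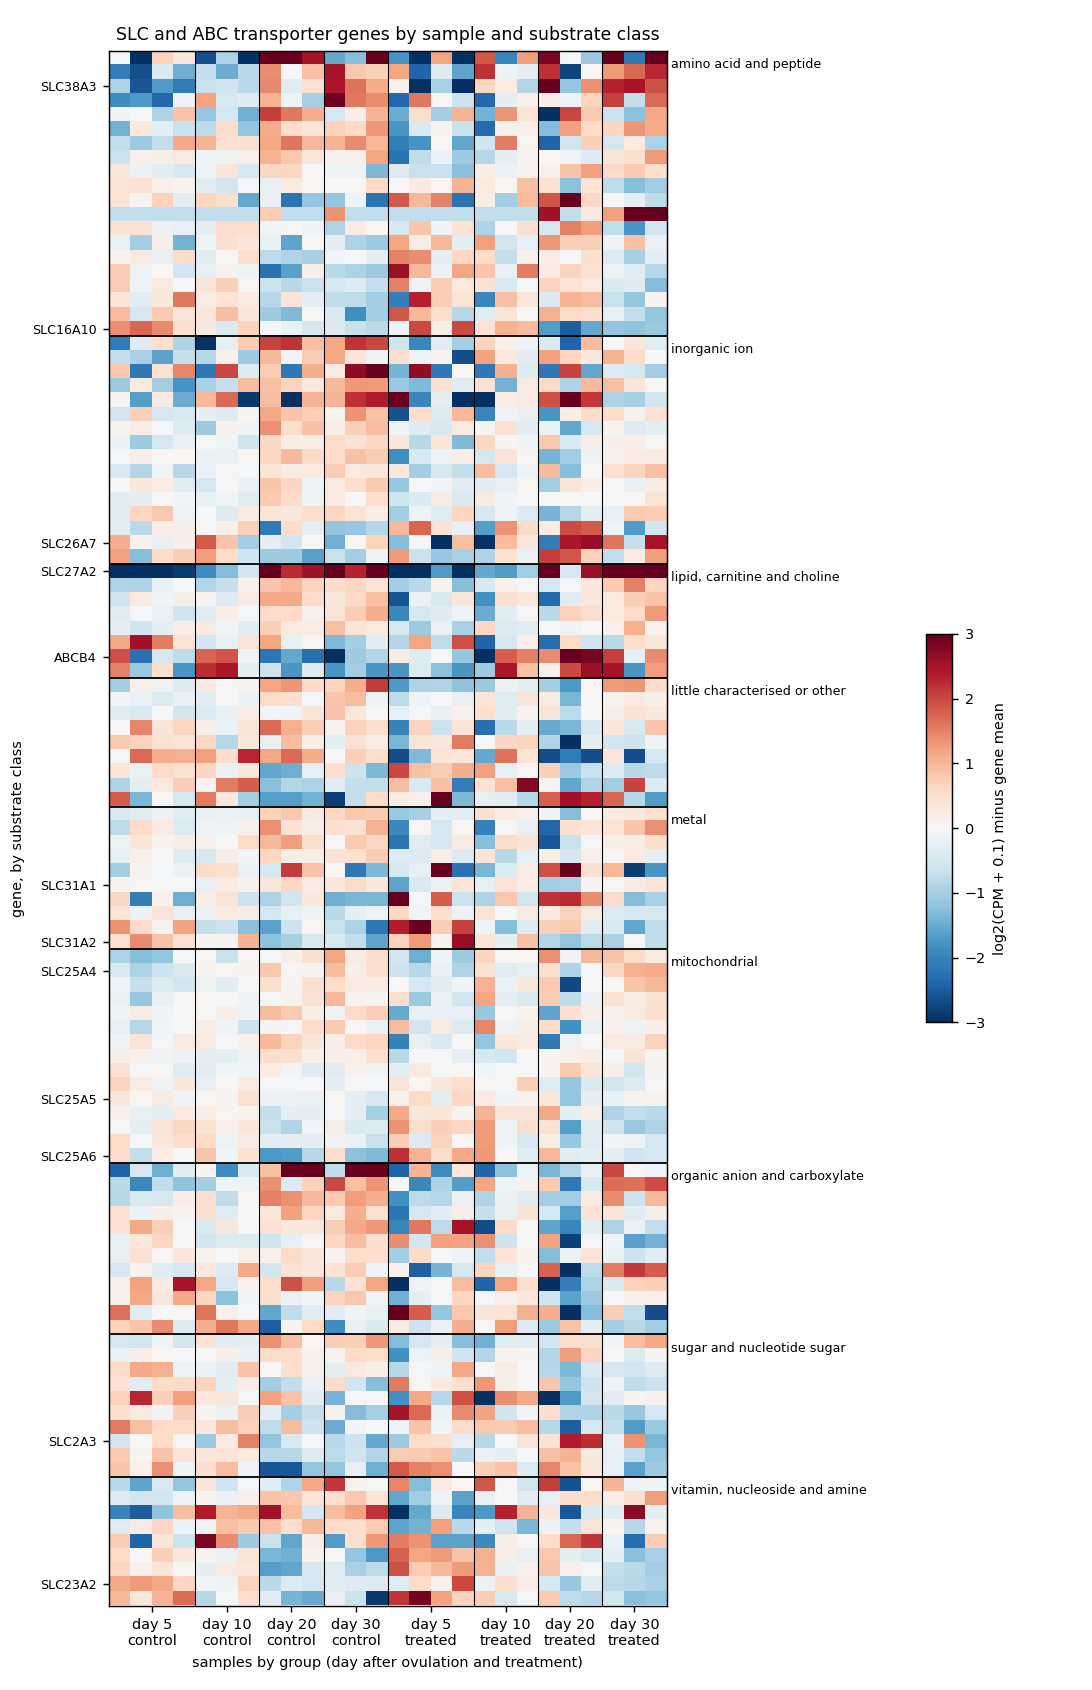
Heatmap of the 109 transporter genes (rows, by substrate class, sorted in each class by the control stage contrast, with 12 genes named) in 26 samples (columns, by group), colored by log2(CPM + 0.1) minus the mean of the gene, from blue (lower) to red (higher). SLC27A2 is blue in all 14 early samples and above its mean in 11 of the 12 mature samples, while most inorganic ion transporters change from light blue to light red in control samples between day 10 and day 20.

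In the control arm, 106 of the 109 genes had enough reads to be tested (a mean of at least 10 in the early or the mature group, 9 of them in only 1 of the groups). By edgeR's quasi-likelihood test with a P under 0.01 and an FDR under 0.1, 40 were called higher and 22 lower in mature CL, against 20.5% of the 13503 genes tested (10.1% higher and 10.4% lower). This count is fixed in large part by the choice of the genes, and 61 of the 62 were on the list of this contrast. The median log2 fold change of the 106 genes was 0.35, against 0.02 over all genes tested. The listed genes closest to the limit of the call were SLC30A4, ABCB10 and SLC1A1 just inside it (log2 fold changes 0.73, 0.43 and -1.03) and SLC30A9, SLC1A5 and SLC10A3 just outside it (0.55, -0.93 and -0.92).

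The calls in the control arm are given by class as a description. Of the inorganic ion transporters, 10 were called higher and 1 lower in mature control CL. Lipid, carnitine and choline transporters had 5 higher and 2 lower, organic anion and carboxylate transporters 4 and 0, and metal transporters 4 and 2. The amino acid and peptide class and the mitochondrial class were each split into 6 higher and 4 lower. For sugar and nucleotide sugar transporters 2 were higher and 4 lower, and for vitamin, nucleoside and amine transporters 1 and 4. Among the little characterised genes 2 were higher and 1 lower.

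The treated dogs had no part in the list of the control stage contrast. Its 73 transporter genes were therefore tested between the 7 early and the 6 mature treated samples, where 5 of them had enough reads in only 1 of the groups. The log2 fold change had the same sign as in control dogs for 69 of the 73 genes (94.5%), and for 64 of the 68 genes with enough reads in both groups. Among the 3387 other genes of this list testable in both arms, the sign was the same for 87.1%. The 4 exceptions were SLC4A8, a bicarbonate transporter (0.92 in control and -0.34 in treated dogs), and ABCB4 (-3.05 and 1.72), SLC13A4 (-1.51 and 1.29) and SLC2A3 (-1.01 and 1.35), which the day 20 treatment contrast had also listed. By edgeR, 11 of the 73 were called in treated dogs (15.1%), 4 higher and 7 lower in mature CL, all in the direction seen in control dogs. Called in the same direction were 13.3% of the other genes of the list, and 4.65% of the 13747 genes tested were called in either direction (1.54% higher and 3.11% lower). DESeq2 called 23 of the 73 (11.8% of all genes). The median log2 fold change of the 43 genes higher in control dogs was 0.85 in control and 0.57 in treated dogs. For the 30 genes lower in control dogs these medians were -1.07 and -0.88.

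Marker sums moved with stage as well. All 6 fibroblast markers had lower means in mature CL of either arm (sums of 6556 to 21511 CPM in early and 2883 to 7269 CPM in mature control samples, and 4092 to 26409 and 2408 to 13905 CPM in treated samples). The 7 steroidogenic markers summed to 2078 to 2785 CPM in early and 3102 to 4998 CPM in mature control samples without overlap, with 6 of the 7 higher in mature samples. In treated dogs their sums were 1867 to 3474 and 480 to 4480 CPM, with 3 of the 7 higher. The part of these differences in the transporter levels was not tested.

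All 11 genes called in treated dogs were among the 60 listed by the stage contrast alone. That subset leaves out the 13 genes that the treatment contrasts of days 20 and 30 had also listed, so that treated samples took part in its choice and 3 of the 4 genes with opposite signs are not in it. The number of calls depended on single samples, and was 19 of the 60 without day 20 treated replicate 2. It was between 3 and 7 when 1 of 9 other samples was left out, namely day 5 treated replicates 1, 2 and 5, day 10 treated replicate 1, day 20 treated replicates 3 and 4 and all 3 day 30 treated samples. The share of all genes called in these fits was not recorded. SLC27A2, SLC16A10 and SLC35D2 were called in each of the 13 fits that left out 1 sample and under each of the 9 other settings.

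**Figure D2:**
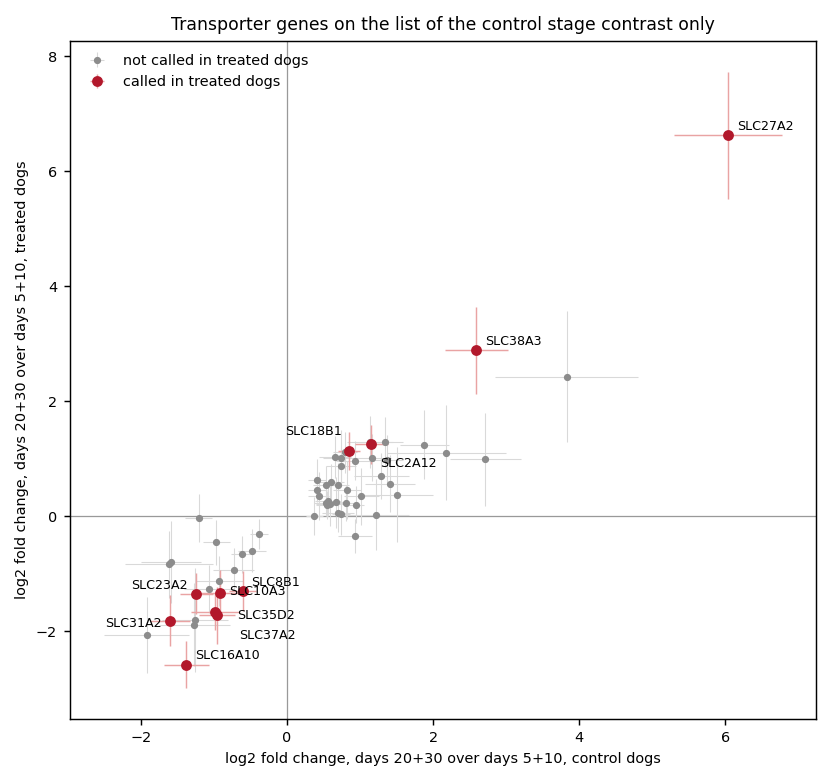
Log2 fold change of mature over early CL in control dogs (x axis) and in treated dogs (y axis) for the 60 transporter genes listed by the control contrast alone (without the 13 that a treatment contrast had also listed), with standard errors as bars. The 11 genes called in treated dogs are red and named; 59 of the 60 points lie in the quadrants where both values have the same sign.

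Among the lipid carriers, SLC27A2 separated the stages in either arm. It encodes FATP2, which takes up fatty acids and activates them to acyl-CoA. SLC27A2 had 0.508, 0.111, 0.370 and 0.755 CPM in day 5 control and 1.62, 2.43 and 4.13 CPM in day 10 control samples. On day 20 the control samples had 184, 29.3 and 35.7 CPM and on day 30 153, 30.8 and 125 CPM. The lowest mature control sample was thus above the highest early one, and the log2 fold change was 6.04 (standard error 0.74). Treated samples had 0.140, 0, 1.81 and 0 CPM on day 5 and 2.04, 1.86 and 2.91 CPM on day 10, then 55.7, 4.33 and 36.8 CPM on day 20 and 129, 253 and 261 CPM on day 30. SLC27A2 rose with stage in treated dogs as well (log2 fold change 6.63, standard error 1.11, edgeR adjusted p = 0.0114), and the early and mature treated samples did not overlap. The lowest mature treated sample, with 4.33 CPM, was day 20 treated replicate 3.

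Carnitine carriers, which bring fatty acids to their oxidation, were also on the list. SLC22A5, the sodium-dependent carnitine transporter OCTN2, and SLC22A4, its relative OCTN1, are neighboring genes in the RefSeq annotation of the dog genome. Their log2 fold changes of mature over early CL were 0.60 and 1.16 in control dogs and 0.60 and 1.02 in treated dogs (edgeR adjusted p = 0.289 and 0.190 in treated dogs). SLC25A20, the mitochondrial carnitine-acylcarnitine carrier, had 44.4 to 71.6 (median 56.3) CPM in early and 76.1 to 105 (median 93.2) CPM in mature control samples, with no overlap. In treated dogs its ranges overlapped (51.2 to 149 CPM early and 10.9 to 143 CPM mature, log2 fold change 0.24, edgeR adjusted p = 0.765). ABCD3, which imports long-chain acyl-CoA into peroxisomes, and SLC44A1, a choline transporter, were higher in mature control CL (log2 fold changes 0.82 and 0.79). Neither was called in treated dogs (0.46 and 1.12, edgeR adjusted p = 0.608 and 0.115). Of the 5 lipid transporters listed by the stage contrast alone, all 5 had a positive sign in treated dogs, as in control dogs. Outside the transporters, 1303 genes listed by stage alone were higher in mature control CL, and 90.9% of them kept this sign in treated dogs. By edgeR 1 of the 5 was called in treated dogs (4.65% of all genes) and by DESeq2 2 (11.8% of all genes), all higher.

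ABCA1, the pump that exports cholesterol to lipoproteins, was listed only by the day 30 treatment contrast. Its level was 153, 397, 201 and 91.1 CPM in day 5 control and 27.4, 33.9 and 54.9 CPM in day 30 control samples. On day 30 the treated samples had 39.6, 99.9 and 87.7 CPM, overlapping with the control samples. Days 5, 10 and 20 had no part in listing it, and there its log2 fold changes of treated over control were -0.79, -0.49 and -0.74 (edgeR adjusted p = 0.513, 1.0 and 0.594).

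Amino acid transporters moved in both directions. SLC38A3 (SNAT3), a glutamine transporter, had 3.13, 0.945, 1.80 and 1.35 CPM in day 5 control and 3.78, 3.94 and 3.42 CPM in day 10 control samples. In mature control CL it had 16.6, 4.88 and 8.32 CPM on day 20 and 33.7, 18.8 and 13.2 CPM on day 30, so that the stages did not overlap. Treated samples had 6.60, 0.359, 3.06 and 0.457 CPM on day 5, 9.32, 7.06 and 3.24 CPM on day 10, 82.4, 2.66 and 15.9 CPM on day 20 and 30.4, 34.0 and 23.1 CPM on day 30. It rose with stage in treated dogs (log2 fold change 2.89, standard error 0.76, edgeR adjusted p = 0.0654), although the day 20 treated samples spread from 2.66 to 82.4 CPM. This call was kept in 7 of the 13 fits without 1 sample.

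SLC16A10 (TAT1), which carries aromatic amino acids, went the other way. Its levels in control dogs were 45.1, 57.4, 46.5 and 24.5 CPM on day 5, 21.1, 12.7 and 27.9 CPM on day 10, 16.7, 15.1 and 12.2 CPM on day 20 and 13.2, 10.9 and 9.98 CPM on day 30. In treated dogs they were 15.8, 68.6, 19.9 and 69.7 CPM on day 5, 22.8, 35.9 and 34.0 CPM on day 10, 5.44, 3.04 and 5.91 CPM on day 20 and 7.73, 7.49 and 8.06 CPM on day 30. All 6 mature treated samples were below all 7 early ones, and SLC16A10 fell by 2.58 on the log2 scale (standard error 0.40, edgeR adjusted p = 0.00770). In control dogs the difference was -1.38, and the ranges overlapped through day 10 control replicate 3, which was below 3 of the 6 mature samples.

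The following amino acid carriers of the stage list were not called in treated dogs. SLC7A11, the cystine-glutamate exchanger xCT, was low throughout, with 0.295 to 1.83 CPM in early and 0.642 to 4.45 CPM in mature control samples. Its log2 fold change was 1.51 in control and 0.38 in treated dogs (edgeR adjusted p = 0.805). SLC7A4 was higher in each mature control sample (1.22 to 7.39 CPM) than in each early one (0.111 to 0.879 CPM), while the treated stages overlapped (0.154 to 5.95 and 0.0951 to 6.20 CPM, edgeR adjusted p = 0.494). SLC43A1 (LAT3), a transporter of neutral amino acids, showed the reverse in control samples (6.56 to 11.9 CPM early and 3.90 to 5.33 CPM mature). Its treated ranges overlapped as well (5.13 to 20.4 and 2.78 to 11.2 CPM, log2 fold change -0.45, edgeR adjusted p = 0.515). The glutamine transporter SLC1A5 (ASCT2) had log2 fold changes of -0.93 in control and -1.13 in treated dogs, the latter with an edgeR adjusted p of 0.170. Of the 10 amino acid and peptide transporters listed by stage alone, edgeR called 1 higher and 1 lower in treated dogs (4.65% of all genes). DESeq2 called 3 higher and 2 lower (11.8% of all genes).

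SLC6A20, a transporter of proline and other imino acids, was listed by the day 30 treatment contrast and had no read in any of the 14 early samples. Mature control samples had 9 reads in all, and mature treated samples 96. In treated dogs the mean of days 20 and 30 was 0.989 CPM, at least 42.2-fold higher than the 3 reads over the group that the 7 early treated samples at 0 allow. It was called in this comparison (edgeR adjusted p = 0.0576), which shares the day 30 treated samples with the contrast that listed it and is therefore a description. The reads came from 0.291, 2.54 and 2.14 CPM in the day 30 treated samples and 0.853, 0 and 0.102 CPM in the day 20 treated samples.

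The vitamin, nucleoside and amine class held carriers of vitamin C, polyamines, folate and purines. SLC23A2 (SVCT2) imports ascorbate with sodium, and the CL is among the tissues richest in vitamin C. It had 380.3, 423, 387 and 272 CPM in day 5 control, 164, 160.4 and 275 CPM in day 10 control, 99.9, 130.5 and 122 CPM in day 20 control and 137, 133 and 131 CPM in day 30 control samples. Each mature control sample was below each early one, and the 3 day 30 values lay within a few CPM of each other. In treated dogs SLC23A2 had 136, 256, 191 and 689.6 CPM on day 5, 154, 242 and 201 CPM on day 10, 120.3, 78.8 and 138 CPM on day 20 and 101, 95.9 and 88.0 CPM on day 30. It fell with stage in treated dogs by 1.34 on the log2 scale (standard error 0.36, edgeR adjusted p = 0.0704), with a single overlap between 138 CPM on day 20 and 136 CPM on day 5. The call was kept in 7 of the 13 fits without 1 sample, where the log2 fold change lay between -1.46 and -0.91. It was not kept without the day 20 treated group.

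SLC18B1, a vesicular polyamine transporter, rose with stage in treated dogs (log2 fold change 1.13, standard error 0.33, edgeR adjusted p = 0.0864). Its levels were 24.3 to 40.1 (median 32.1) CPM in early and 47.2 to 66.2 (median 57.5) CPM in mature control samples, without overlap, and 11.8 to 35.9 (median 28.8) and 30.6 to 86.2 (median 52.1) CPM in treated samples. The SLC18B1 call in treated dogs was kept in 3 of the 13 fits without 1 sample. SLC19A1, the reduced folate carrier, had log2 fold changes of -1.07 in control and -1.27 in treated dogs, and its edgeR adjusted p in treated dogs was 0.121. SLC43A3, a purine nucleobase transporter, was on both the stage list and the day 20 list. It had 15.7 to 30.0 CPM in early and 6.07 to 14.8 CPM in mature control samples, and 34.0, 21.5 and 18.6 CPM in day 20 treated samples.

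Of the 6 sugar transporters listed by stage alone, 2 fell and 1 rose in treated dogs, by edgeR (4.65% of all genes called) and by DESeq2 (11.8%). SLC37A2, a sugar phosphate carrier of the endoplasmic reticulum, fell in treated dogs (log2 fold change -1.72, standard error 0.50, edgeR adjusted p = 0.0884), from 12.7 to 108 (median 44.5) CPM to 8.69 to 27.8 (median 10.6) CPM. In control dogs the ranges were 17.1 to 32.1 and 7.71 to 21.2 CPM. The SLC37A2 call in treated dogs was kept in 4 of the 13 fits without 1 sample, and was lost without the day 20 treated group. SLC35D2, which carries nucleotide sugars into the Golgi, fell from 66.2 to 139 (median 127) CPM to 13.2 to 51.8 (median 37.5) CPM in treated dogs without overlap (log2 fold change -1.66, standard error 0.32, edgeR adjusted p = 0.0178). In control dogs it had 93.9 to 216 and 26.1 to 142 CPM, which overlapped through day 20 control replicate 2.

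Glucose transporters of the SLC2 family did not share a direction. SLC2A12 (GLUT12) rose in treated dogs (log2 fold change 1.25, standard error 0.34, edgeR adjusted p = 0.0711), with 2.95 to 6.63 (median 5.74) CPM in early and 5.44 to 18.1 (median 11.5) CPM in mature samples. In control dogs it had 5.45 to 11 (median 6.42) and 8.48 to 21.1 (median 14.5) CPM. The SLC2A12 call in treated dogs was kept in 4 of the 13 fits without 1 sample. SLC2A8 (GLUT8) was lower in mature control CL (-0.73) and had -0.93 in treated dogs (edgeR adjusted p = 0.193). SLC2A3 (GLUT3), a high-affinity glucose transporter, was on the stage list and the day 20 list. Its level was 51.0, 77.0, 113 and 78.1 CPM in day 5 control, 35.3, 90.2 and 214 CPM in day 10 control, 33.2, 55.4 and 73.2 CPM in day 20 control and 43.7, 49.0 and 26.3 CPM in day 30 control samples. Treated samples had 35.7, 112, 104 and 64.2 CPM on day 5 and 42.4, 73.2 and 100.1 CPM on day 10, then 103, 397 and 353 CPM on day 20 and 65.8, 195 and 29.4 CPM on day 30. The day 20 treated samples were thus above all day 20 control samples, with the lowest value in replicate 2, and the day 30 groups overlapped.

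Copper carriers of one family ran in opposite directions in control dogs. SLC31A1 (CTR1), the copper importer of the plasma membrane, had 106 to 148 (median 129) CPM in early and 149 to 193 (median 157) CPM in mature control samples. SLC31A2 (CTR2), its relative in intracellular membranes, had 8.79 to 22.6 (median 11.5) and 2.74 to 5.99 (median 4.55) CPM. Neither pair of ranges overlapped, and the log2 fold changes were 0.37 and -1.60. In treated dogs SLC31A2 fell from 6.93 to 51.6 (median 13.6) CPM to 3.61 to 8.61 (median 4.63) CPM (log2 fold change -1.82, standard error 0.45, edgeR adjusted p = 0.0536). The call was kept in 9 of 13 fits without 1 sample, and was lost without the day 20 treated group. SLC31A1 had a log2 fold change of 0.01 (edgeR adjusted p = 0.993) in treated dogs, where the day 20 samples had 60.2, 64.0 and 133 CPM and the day 30 samples 129, 151 and 165 CPM.

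Zinc and iron carriers completed the metal class. SLC39A9 (ZIP9), a zinc importer, had 157 to 192 (median 185) CPM in early and 262 to 381 (median 359.7) CPM in mature control samples, with no overlap and a log2 fold change of 0.94. In treated dogs it was already at 308, 258 and 240.2 CPM on day 10, and the stages overlapped (log2 fold change 0.20, edgeR adjusted p = 0.731). SLC39A14 (ZIP14), which imports zinc and iron, had 0.55 in control and 0.19 in treated dogs. SLC40A1 (ferroportin), the iron exporter, was on the stage and day 20 lists, with 84.1 to 132 CPM in early and 57.2 to 91.3 CPM in mature control samples and 124, 162 and 120.5 CPM in day 20 treated samples. SLC11A1 (NRAMP1), a metal transporter of macrophage phagosomes, had 1.24 to 8.13 (median 3.33) CPM in early and 0.624 to 3.18 (median 1.75) CPM in mature control samples. In treated dogs its log2 fold change was -1.89 (edgeR adjusted p = 0.174). All 10 myeloid markers also had lower means in mature CL of either arm, with sums of 274 to 610 CPM in early and 123 to 188 CPM in mature control samples, and 310 to 1090 and 172 to 272 CPM in treated samples. No myeloid marker was at 0 in a whole group, and the part of this difference in SLC11A1 was not tested.

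Mitochondrial carriers included the 3 ADP/ATP carriers, which exchange ATP made in mitochondria for cytosolic ADP. SLC25A4 had 96.4, 68.3, 85.2 and 97.9 CPM in day 5 control, 139.8, 136 and 140.2 CPM in day 10 control, 231, 135 and 139.7 CPM in day 20 control and 254, 151 and 187 CPM in day 30 control samples. SLC25A5 had 97.4 to 144 CPM in early and 75.4 to 109 CPM in mature control samples. SLC25A6 had 108 to 314 CPM in early control samples and 53.2, 55.5 and 99.8 CPM on day 20 and 256, 75.0 and 70.4 CPM on day 30. The 3 genes thus had log2 fold changes of 0.74, -0.38 and -1.07 in control dogs, where SLC25A4 was higher and the other two lower in mature CL. In treated dogs they had 0.88, -0.31 and -1.09, the same signs, and none was called (edgeR adjusted p = 0.162, 0.505 and 0.163). SLC25A6 was also on the day 20 list. In mature CL of each arm 1 sample stood far above the others, 256 CPM in day 30 control replicate 2 and 356 CPM in day 20 treated replicate 2.

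SLC8B1 (NCLX), which exports calcium from mitochondria in exchange for sodium, fell in treated dogs (log2 fold change -1.31, standard error 0.35, edgeR adjusted p = 0.0675) and had -0.61 in control dogs. Its treated samples had 26.2 to 74.9 (median 44.7) CPM early and 9.17 to 39.5 (median 17.4) CPM mature. The SLC8B1 call in treated dogs was kept in 4 of the 13 fits without 1 sample. SLC25A28, a mitochondrial iron importer, had -0.62 in control and -0.66 in treated dogs (edgeR adjusted p = 0.270). Of the 10 mitochondrial transporters listed by stage alone, edgeR called 1 lower in treated dogs (4.65% of all genes called in either direction). DESeq2 called 1 higher and 1 lower (11.8% of all genes). ABCB6, a porphyrin transporter listed on day 20 only, had 195, 218 and 274 CPM in day 20 control and 341, 119.7 and 178 CPM in day 20 treated samples, which overlapped (log2 fold change -0.07).

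**Figure D3:**
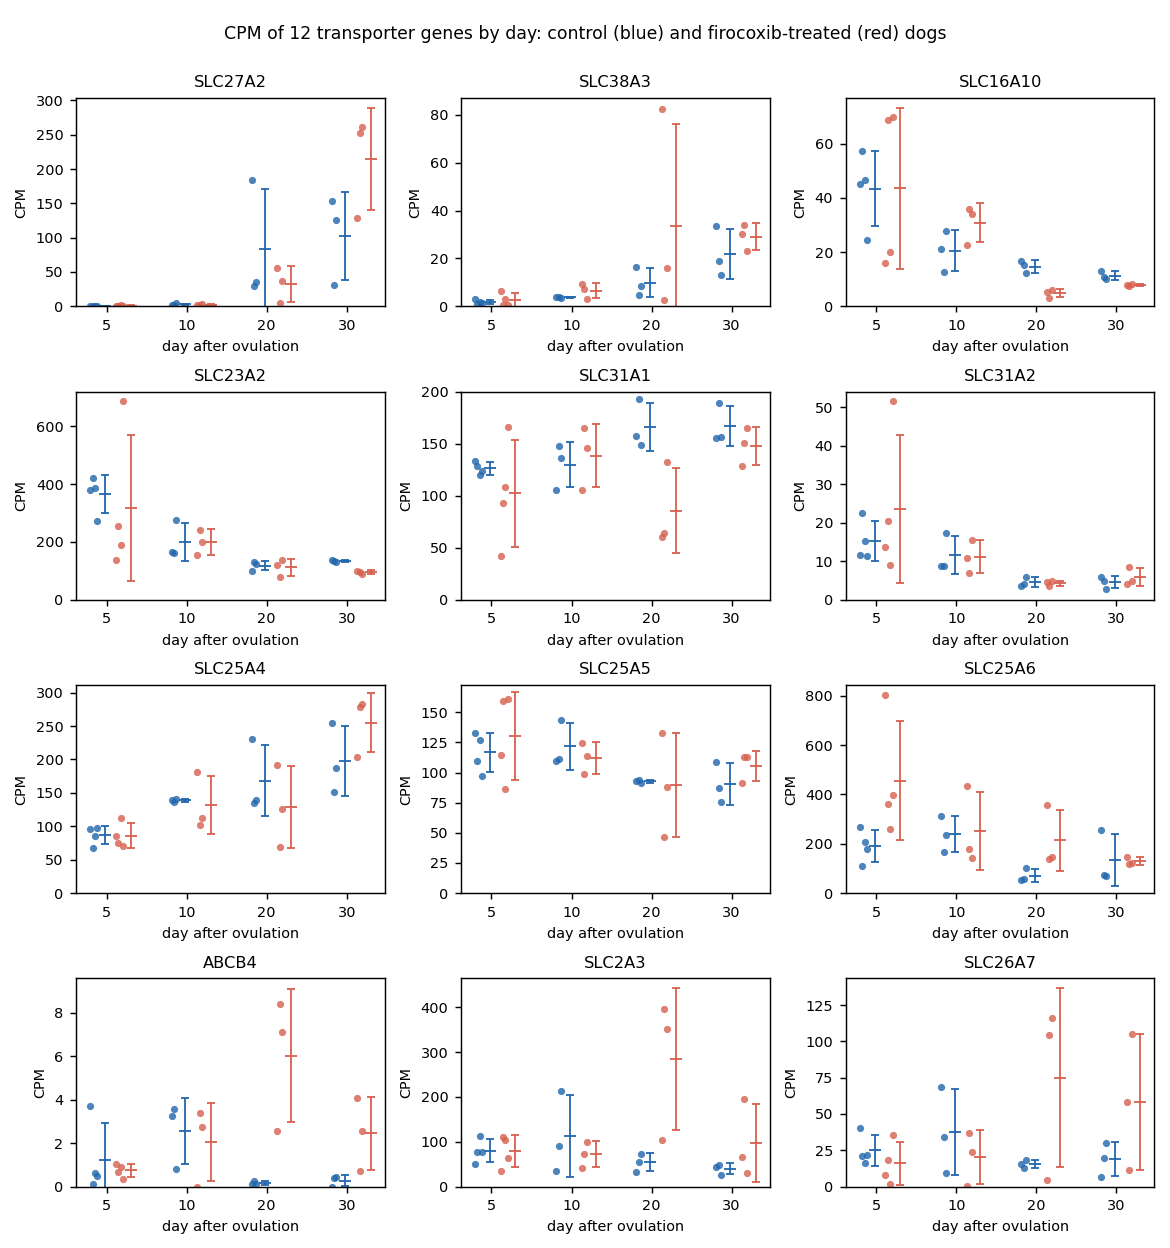
CPM (y axes, linear from 0) of 12 transporter genes by day after ovulation (x axes) in control (blue) and treated (red) samples, with each sample as a point and the mean and SD (n = 4 on day 5, otherwise 3) beside it. SLC27A2 and SLC38A3 are low in early samples of both arms, SLC16A10 and SLC31A2 are lower in mature than in early samples of both arms for most samples, and ABCB4 has its 2 highest values in day 20 treated samples.

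The inorganic ion transporters listed by the stage contrast alone were not called in treated dogs. All 9 of them were higher in mature control CL, with log2 fold changes between 0.54 and 1.41. They included the chloride cotransporters SLC12A2 (NKCC1) and SLC12A5 (KCC2), the calcium exchangers SLC8A3 and SLC24A3, the phosphate importer SLC20A2 and the magnesium transporter SLC41A3. In treated dogs 8 of the 9 had a positive sign, reaching 0.70. Of the 9, 0 were called by edgeR (4.65% of all genes) or DESeq2 (11.8% of all genes). By edgeR 0 of the 9 had an unadjusted P under 0.05, against 19.6% of all genes. SLC41A3 had 94.6 to 178 CPM in early and 204 to 293 CPM in mature control samples, while its treated samples had 85.9 to 331 CPM early and 71.3 to 338 CPM mature. The difference between the arms was not tested.

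Organic anion and carboxylate carriers had 5 genes listed by stage alone. In treated dogs 0 of the 5 were called by edgeR (4.65% of all genes) or DESeq2 (11.8% of all genes). By edgeR 1 of the 5 had an unadjusted P under 0.05 (19.6% of all genes). Differences between classes were not tested. SLC16A6, a monocarboxylate transporter, had 10.5 to 26.7 (median 13.7) CPM in early and 32.7 to 54.1 (median 42.7) CPM in mature control samples, without overlap. Treated samples had 5.27 to 16.4 CPM early, 9.11, 9.08 and 22.8 CPM on day 20 and 50.4, 12.3 and 37.2 CPM on day 30 (stage log2 fold change 0.99, edgeR adjusted p = 0.215). SLCO3A1, a carrier of prostaglandins and other organic anions, had log2 fold changes of 1.88 in control and 1.25 in treated dogs (edgeR adjusted p = 0.264). SLC16A9, a further monocarboxylate transporter, had 0.58 and 0.22. SLCO1A2, an organic anion carrier, was on the stage list and the day 20 list. It had 0 to 0.463 CPM in early control samples, 0.901, 5.06 and 7.58 CPM on day 20 and 0.214, 4.95 and 6.74 CPM on day 30, against 0.107, 0.190 and 0.357 CPM in the day 20 treated and 2.04, 0.424 and 0.406 CPM in the day 30 treated samples. Day 20 treated samples thus stayed within the range of the early control samples.

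SLCO2A1 is the prostaglandin transporter, which takes up prostaglandin E2 for its inactivation. It was listed by the day 30 treatment contrast only, where control samples had 29.4, 35.4 and 26.7 CPM and treated samples 17.3, 6.0 and 6.96 CPM without overlap. Early samples had 12.8 to 29.2 CPM in control and 12.1 to 49.5 CPM in treated dogs. On day 20, which had no part in listing it, control samples had 12.3, 15.9 and 19.6 CPM and treated samples 43.4, 2.61 and 17.9 CPM, a log2 fold change of 0.45 (edgeR adjusted p = 0.771). On days 5 and 10 it was 0.76 and 0.97 (edgeR adjusted p = 0.421 and 1.0). SLC16A1 (MCT1), the lactate and pyruvate carrier, was likewise listed on day 30, with 36.0, 48.5 and 47.7 CPM in control and 29.1, 21.7 and 26.1 CPM in treated samples.

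Among the little characterised members, SLC10A3, an orphan of the bile acid transporter family, fell with stage in treated dogs (log2 fold change -1.34, standard error 0.40, edgeR adjusted p = 0.0944). It had 9.36 to 44.5 (median 20.4) CPM in early and 5.18 to 18.1 (median 6.63) CPM in mature treated samples, and this call was kept in 3 of the 13 fits without 1 sample. SLC46A3, a lysosomal carrier, had 1.34 in control and 1.29 in treated dogs (edgeR adjusted p = 0.135).

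Within the treated arm, the change between neighboring days was also tested for the 60 genes of the stage list. On day 10 over day 5 edgeR called 0 of the 60 and 0% of the 13613 genes tested, with 5 of the 60 at an unadjusted P under 0.05 (4.44% of all genes) and 1 called by DESeq2 (0.323% of all genes). On day 30 over day 20 it called 0 of the 59 tested and 0% of 13692 genes, with 11 of the 59 at an unadjusted P under 0.05 (10.8% of all genes) and 4 called by DESeq2 (4.10% of all genes).

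Treatment was compared day by day. On day 5, edgeR called none of the 105 transporter genes tested (0% of all genes), 12 had an unadjusted P under 0.05 (11.8% of all genes), and DESeq2 called none (0.733% of all genes). On day 10 it called none of 104 (0% of all genes), with 3 at an unadjusted P under 0.05 (0.902% of all genes) and none called by DESeq2 (0% of all genes). On day 20 it called 2 of 107, ABCB4 and SLC35F1, both higher in treated samples and both on the list of that day, against 0.102% of all genes, all of them higher. These 2 genes reached the minimum of 10 reads in the treated group only, and 13 of the 107 reached it in only 1 of the groups. On day 30 it called none of 103 (0% of all genes), with 15 at an unadjusted P under 0.05 (8.14% of all genes) and 6 called by DESeq2 (0.879% of all genes). On day 20, 32 of the 107 had an unadjusted P under 0.05 by edgeR against 17.0% of all genes. DESeq2 called 27 of the 107 against 10.8% of all genes. In this contrast and that of day 30 the shares include the genes the contrast itself had listed.

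By class, the median log2 fold change of treated over control on day 20 was 0.44 for the 19 amino acid and peptide transporters tested, 0.31 for the 10 sugar and 0.62 for the 9 vitamin, nucleoside and amine transporters. It was -1.09 for the 11 organic anion and carboxylate, -0.19 for the 10 metal and -0.14 for the 16 inorganic ion transporters. The 8 transporters of lipids, carnitine and choline had -0.57, the 15 mitochondrial -0.07 and the 9 little characterised transporters -0.57. Over all genes the median was 0.11. On day 30 the lipid, carnitine and choline class stood at 0.86, against 0.05 over all genes, with all 8 members positive. The medians of the other classes lay between -0.34 and 0.32. Of the 5 lipid transporters listed by stage alone, all 5 were negative on day 20 and all 5 positive on day 30, and none was called on either day by edgeR. These 5 share the day 20 and day 30 controls with the contrast that listed them. On days 5 and 10 the class medians lay between -0.49 and 0.75 and between -0.28 and 0.20. These medians mix genes that the contrasts of days 20 and 30 had listed with genes they had not.

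**Figure D4:**
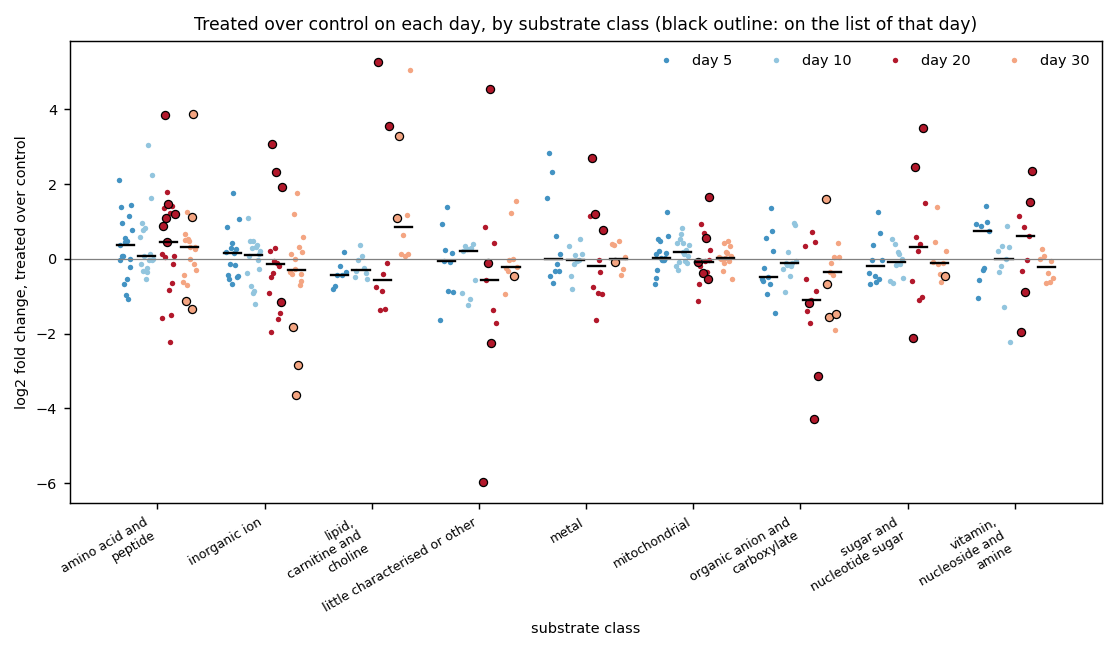
Log2 fold change of treated over control (y axis) for each transporter gene on days 5, 10, 20 and 30 (colors, left to right), by substrate class (x axis), with the median of each class and day as a black line and genes on the list of that day outlined in black. The outlined points of day 20 reach from -5.98 to 5.27, and genes without an outline scatter around 0 on days 5 and 10.

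ABCB4 was the only transporter on 3 lists. It encodes the phosphatidylcholine floppase of cell membranes. Control samples had 3.72, 0.111, 0.601 and 0.485 CPM on day 5, 3.24, 3.58 and 0.825 CPM on day 10, 0.120, 0.244 and 0.106 CPM on day 20 and 0, 0.376 and 0.437 CPM on day 30. Treated samples had 1.05, 0.667, 0.905 and 0.343 CPM on day 5, 0, 3.40 and 2.72 CPM on day 10, 2.56, 8.41 and 7.09 CPM on day 20 and 4.07, 0.706 and 2.55 CPM on day 30. The treated samples were above the control samples on day 20 (364 reads in all against 8, log2 fold change 5.27, standard error 0.75) and on day 30 (124 reads against 13, 3.30), and the groups overlapped on days 5 and 10. SLC35F1, an orphan of the nucleotide sugar transporter family, had 0.120, 0.122 and 0.159 CPM in day 20 control and 2.29, 3.90 and 3.37 CPM in day 20 treated samples (7 reads against 191, log2 fold change 4.55). Its highest value was 7.67 CPM, in day 5 treated replicate 4.

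Levels of ABCB4 were set against those of oocyte markers, since both differed between the day 20 groups. The 8 oocyte markers (among them ZP2, GDF9 and BMP15) all had higher means in day 20 treated than in day 20 control samples, and 3 of them were at 0 in all day 20 controls. Like the other markers they were found through the lists, so this difference is a description. They were high in some samples of other groups too, such as day 10 control replicates 2 and 3 with sums of 115 and 123 CPM. The genes differed between groups in the contrasts that listed them, so the relation was tested only with each group's mean removed, by permuting samples within groups. The 5 genes examined this way were picked after their values were seen. For log2 ABCB4 and the log2 sum of the markers, the within-group Pearson's r over the 26 samples was 0.83 and Spearman's rho 0.87 (permutation p = 2e-05 for either), with an r of 0.82 without the 2 samples farthest from the median. For SLC44A5, a choline transporter-like gene, the within-group r was 0.73 and the rho 0.70 (permutation p = 0.00217 and 0.00274), with an r of 0.63 without the 2 farthest samples. For SLC26A7, an anion exchanger, r was 0.58 and rho 0.52 (permutation p = 0.00865 and 0.0198), with an r of 0.51 without the 2 farthest samples. For SLC35F1 the within-group r was 0.37 and the rho 0.43 (permutation p = 0.161 and 0.0768), with an r of 0.30 without the 2 farthest samples. For SLC2A3 the within-group r was -0.42 and the rho -0.31 (permutation p = 0.110 and 0.217), with an r of -0.19 without the 2 farthest samples. After Benjamini-Hochberg adjustment over the 5 genes, the within-group p of r was 0.0001 for ABCB4, 0.00542 for SLC44A5, 0.0144 for SLC26A7, 0.161 for SLC35F1 and 0.138 for SLC2A3. The part of oocytes in the levels of these genes was not tested.

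**Figure D5:**
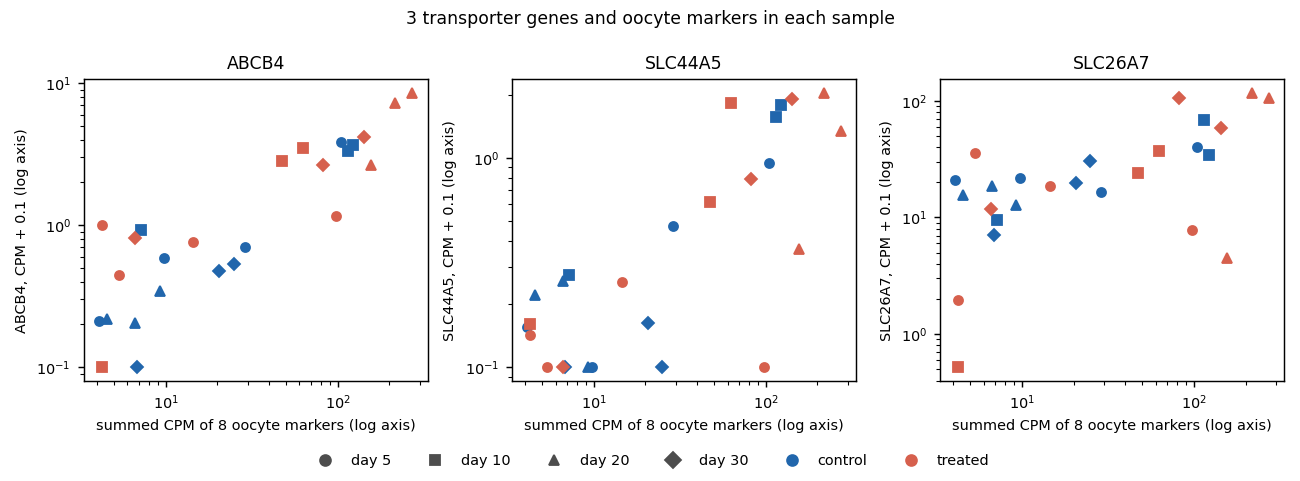
CPM + 0.1 of ABCB4, SLC44A5 and SLC26A7 (y axes, log scale) against the summed CPM of 8 oocyte markers (x axes, log scale) in each of the 26 samples, with day as the shape and treatment as the color of a point. ABCB4 is highest in the 2 samples with the highest marker sums, day 20 treated replicates 3 and 4.

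Of the members on both the stage list and the day 20 list, several were low in mature control CL and high in day 20 treated CL. These contrasts share the day 20 control samples, so the values are given side by side. SLC13A4, a sulfate transporter, had log2 fold changes of -1.51 between control stages and 3.08 between treated and control on day 20, with 0.901, 0.914 and 0.583 CPM in day 20 control and 8.85, 7.61 and 3.31 CPM in day 20 treated samples. SLC38A5 (SNAT5), a glutamine transporter, had -1.38 and 1.47, and SLC45A1, a sugar transporter, had -2.22 and 3.50. For SLC7A7, which exports cationic amino acids, the values were -0.63 and 1.21, for SLC1A1, a glutamate importer, -1.03 and 0.88, and for SLC25A6 -1.07 and 1.65. SLCO1A2 had the opposite order, 4.35 and -4.29. On the stage and day 30 lists, SLC13A1, a sulfate transporter, had 1.66, 3.45 and 3.06 CPM in day 30 control and 0.698, 0.918 and 0.522 CPM in day 30 treated samples, and SLC30A9, a zinc transporter, had 177, 308 and 274 and 201, 203 and 257 CPM.

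The genes listed by day 20 alone ran in both directions. ABCB5, a relative of the multidrug exporters, had 1.32, 1.95 and 1.27 CPM in day 20 control and 0, 0.0475 and 0 CPM in day 20 treated samples. SLCO6A1, an organic anion transporter family member, had 11.8, 30.6 and 19.5 and 0.853, 1.85 and 4.13 CPM, and SLC2A13, a proton-coupled myo-inositol transporter, had 55.2, 43.8 and 19.4 and 2.24, 7.32 and 16.5 CPM. In these 3 genes the treated samples were all below the control samples. SLC1A7, a glutamate transporter, had 0.300, 0 and 0.106 CPM in day 20 control and 1.60, 3.66 and 0.612 CPM in day 20 treated samples. SLC52A3, which imports riboflavin, had 0.421, 0.183 and 0.848 and 1.12, 2.61 and 3.57 CPM, and SLC30A3, which loads vesicles with zinc, had 0.120, 0.183 and 0.424 and 1.81, 1.90 and 1.02 CPM. Here the treated samples were all above the control samples, at levels of a few CPM. SLC26A7 had 15.5, 12.8 and 18.5 CPM in day 20 control and 4.37, 105 and 116 CPM in day 20 treated samples, with replicate 2 below the controls and replicates 3 and 4 far above them. Over the 23 genes the log2 fold changes ran from -5.98 for ABCB5, which had reads in 1 of the 3 treated samples, to 4.55 for SLC35F1.

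The samples of days 5, 10 and 30 had no part in the day 20 contrast, and its 34 listed transporter genes were examined on those days. On day 30, 30 of them were tested, 0 were called by edgeR (0% of all genes) or by DESeq2 (0.879% of all genes), and 3 had an unadjusted P under 0.05 by edgeR, against 8.14% of all genes. Of these, ABCB4 and SLC44A5 (43 reads in the day 30 treated and 1 read in the day 30 control samples) reached the read minimum in the treated group only. ABCB4 was also on the day 30 list, so its day 30 values are a description. Among the 26 genes with enough reads in both groups, SLC26A7 alone had a P under 0.05 (log2 fold change 1.76). The sign on day 30 was that of day 20 for 22 of the 30 (73.3%), for 18 of those 26 (69.2%), and for 64.0% of 1582 other genes listed on day 20. On day 5, 22 of 32 had the sign of day 20 (68.8%, against 70.7% of 1622 other genes), and on day 10, 12 of 31 (38.7%, against 34.0% of 1624). None was called on either day by edgeR or DESeq2. On day 5, SLC25A6, SLC43A3 and the zinc transporter SLC30A3 had an unadjusted P under 0.05, of which SLC30A3 had enough reads in 1 group only. On day 10 SLC22A3, a carrier of organic cations, had such a P.

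The genes listed by day 30 alone were mostly lower in treated samples. SLC34A2, a sodium-phosphate cotransporter, had 2.30, 5.27 and 6.05 CPM in day 30 control and 0.523, 0.494 and 0.696 CPM in day 30 treated samples. SLC26A3, a chloride-bicarbonate exchanger, had 0.428, 2.76 and 4.68 and 0.233, 0.212 and 0.116 CPM. SLC6A15, a neutral amino acid transporter, had 26.5, 35.0 and 26 and 9.01, 16.1 and 6.72 CPM, and SLC36A1, a proton-coupled amino acid exporter of lysosomes, had 15.7, 15.7 and 24.0 and 9.30, 6.43 and 7.53 CPM. The treated samples were below the control samples in each of these 4 genes. SLC13A2, which carries citrate and other dicarboxylates, had 1.77, 2.26 and 1.19 CPM in control and 3.95, 5.93 and 4.75 CPM in treated samples, where the order was reversed. Over the 13 genes the log2 fold changes ran from -3.64 to 3.88, and 9 of the 13 were negative. All 8 endothelial markers also had lower means in day 30 treated than in day 30 control samples (sums of 696 to 1342 and 1835 to 2246 CPM), none at 0 in either group, and their part in these differences was not tested.

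The 16 genes of the day 30 list were examined on day 20 in the same way. ABCB4 was also on the day 20 list, so its day 20 values are a description, and SLC13A1 and SLC30A9 share the day 20 controls through the stage list. Of 15 tested, edgeR called ABCB4, which reached the read minimum in the treated group only. DESeq2 called 3 (10.8% of all genes), and 5 had an unadjusted P under 0.05 by edgeR, against 17.0% of all genes. Of the 13 with enough reads in both groups, 4 had such a P, and edgeR called none of them. SLC16A12, a creatine and monocarboxylate transporter, had 31.0, 28.7 and 28.9 CPM in day 20 control and 7.51, 5.85 and 19.1 CPM in day 20 treated samples, without overlap (log2 fold change -1.40, edgeR adjusted p = 0.233). On day 30 it had 38.4, 50.3 and 56.8 and 11.9, 19.8 and 13.7 CPM. SLC37A3, a sugar phosphate carrier, had -1.02 and SLC6A17, a vesicular amino acid carrier, had 1.43 on day 20, in each case with the sign of day 30. SLC30A9, also on the stage list, had -1.64. The sign on day 20 was that of day 30 for 10 of the 15 (66.7%), for 9 of the 13 (69.2%), and for 293 of 533 other genes listed on day 30. Of the 12 tested genes listed by day 30 alone, 7 had the sign of day 30 (58.3%, against 41.1% of 299 other such genes). Among these 12, 3 had an unadjusted P under 0.05 and edgeR called 0.

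On day 20 the result depended on 1 animal. Without day 20 treated replicate 2, edgeR called 19 transporter genes, 10 higher and 9 lower in treated samples. The share of all genes called in that fit was not recorded, so this count cannot be set against it. Among them were SLC2A3 (log2 fold change 2.84, edgeR adjusted p = 0.00992), SLC26A7 (2.86, edgeR adjusted p = 0.00354) and SLC13A4 (2.82, edgeR adjusted p = 0.0400). Without any 1 of the other 5 samples of that day it called 0. These 3 genes were listed by day 20, so that the values are a description.

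Other transport genes of the same lists gave a comparison. The 25 listed genes for ion-pump and flippase ATPases, aquaporins and MFSD carriers had 11 called higher and 2 lower in mature control CL. Of all genes, 10.1% were called higher and 10.4% lower there, and the count of the 25 is fixed in large part by the lists. In treated dogs 1 was called higher and 1 lower with stage, against 1.54% and 3.11% of all genes. No gene of the 25 was called by edgeR between treated and control samples on any of the 4 days, with 3, 0, 13 and 2 at an unadjusted P under 0.05 on days 5, 10, 20 and 30, against 11.8%, 0.902%, 17.0% and 8.14% of all genes. Of the 13 on day 20, 8 were on the list of that day, and both genes of day 30 were on the day 30 list.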

How the data were processed

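RNA-Seq of 26 canine CL samples was analysed, with groups taken from the labels. The authors deposited raw read counts per gene for each sample, made per the submitters' processing notes with STAR, featureCounts and the CanFam3.1 genome. From these counts, TMM-scaled CPM and edgeR quasi-likelihood tests were computed (R 4.3.3, edgeR 4.0.16), with DESeq2 1.42.0 and limma 3.58.1 voom as alternatives. A gene was tested where 1 of the groups compared averaged 10 reads or more, and a gene was called at P under 0.01 and a Benjamini-Hochberg FDR under 0.1 over all genes tested. The fits were tested on simulated counts. The lists of DEGs served to find the transporter genes, the other transport genes and the other listed genes set beside them. Marker genes were found through the same lists, so a marker on none of them could not be used. The members, substrate classes (assigned by hand from gene names) and marker lists were chosen with earlier results of these data known. Genes named were those on 2 or more lists, up to 12 called genes per comparison and direction, the 2 with the highest mean CPM in each class, and 13 with known roles in luteal tissue. Others, among them SLC31A1, SLC26A7, SLC44A5, ABCB5, SLC16A12, SLC12A2, SLC12A5, the carnitine carriers SLC22A4 and SLC22A5 and those named near a threshold or for a P under 0.05, were picked after their values were seen. Following each whole list into samples it did not use, and leaving out genes with enough reads in 1 group only, was chosen after seeing the data. Replicates were separate dogs. Replicate numbers marked no shared animal, and only day 10 over day 5 in treated dogs had all 3 same-numbered pairs correlated above 0.1 (lowest 0.101). No gene was called there with or without the block. The deposited counts give no transcript lengths, and sequences were not analysed here. Some genes are counted but not reported by name here.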

Additional observations from a re-analysis of the deposited data

Results flagged for a closer look

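For named transporter genes, 1 sample stood far from the rest of its group in 21 of 156 groups tested by Dixon's criterion, and in each case it was the highest. The rate of about 1 group in 20 flagged by chance holds for independent groups of normally distributed values. Here CPM were used without log transformation, most groups joined 2 days, and the day 5 groups are part of the early ones. The 21 flags can therefore not be set against that rate. No explanation was tested. In mature control CL, ABCA1 had 158 CPM in day 20 control replicate 1 (next highest 70.5 CPM), SLC25A6 had 256 CPM in day 30 control replicate 2 (next 99.8 CPM) and SLC35F1 had 0.936 CPM in day 30 control replicate 4 (next 0.314 CPM). In early control CL, SLC35D2 had 216 CPM in day 5 control replicate 1 (next 141 CPM), SLC2A12 had 11 CPM in day 10 control replicate 2 (next 7.58 CPM) and SLC7A11 had 1.83 CPM in day 5 control replicate 5 (next 0.945 CPM). Within day 5 control alone, ABCB4 had 3.72 CPM in replicate 1 (next 0.601 CPM) and SLC2A12 had 7.58 CPM in replicate 4 (next 5.76 CPM).

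In mature treated CL, day 20 treated replicate 2 was the highest sample for 4 genes, SLC25A6 with 356 CPM (next 148 CPM), SLC37A2 with 27.8 CPM (next 13.3 CPM), SLC10A3 with 18.1 CPM (next 8.49 CPM) and SLC19A1 with 7.35 CPM (next 3.37 CPM). SLC31A2 had 8.61 CPM in day 30 treated replicate 4 (next 4.93 CPM). In early treated CL, day 5 treated replicate 5 had 689.6 CPM of SLC23A2 (next 256 CPM) and 51.6 CPM of SLC31A2 (next 20.5 CPM). Day 10 treated replicate 1 had 181 CPM of SLC25A4 (next 113 CPM) and 149 CPM of SLC25A20 (next 90.4 CPM). SLC11A1 had 38.6 CPM in day 5 treated replicate 2 (next 16.4 CPM). SLC35F1 had 7.67 CPM in day 5 treated replicate 4 (next 0.702 CPM), both among early treated and among day 5 treated samples, and SLC27A2 had 1.81 CPM in the same sample (next 0.140 CPM within day 5 treated).

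For 6 genes every treated sample was above every control sample on 1 day and below them on another. The difference between the days was not tested, and the share of all genes with such a reversal was not counted. All treated samples were above the controls for 20 and below them for 27 of 107 transporter genes on day 20. On day 30 these counts were 5 and 22 of 103, and on day 10 4 and 4 of 104. The share of all genes with such a separation was not recorded. The counts include genes listed by the contrast itself, 14 above and 9 below among the 34 of the day 20 list. Among the 16 of the day 30 list they were 3 and 9. SLC39A9, the zinc importer, had a log2 fold change of treated over control of 0.53 on day 10, -0.93 on day 20 and -0.27 on day 30. SLC45A3, a sugar transporter, had -0.52 on day 10 and 1.5 on day 20. SLC36A1, an amino acid carrier, had 0.77 on day 10 and -1.13 on day 30. Between days 20 and 30, SLC22A4, the carnitine carrier relative, went from -0.85 to 0.64, SLC34A2, the phosphate carrier, from 2.36 to -2.85 and SLC7A7, the cationic amino acid exporter, from 1.21 to -0.29.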

How the results depend on the processing

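The counts of called transporter genes depended on the tool and on single animals, and the cause was not tested. For mature over early CL in control dogs (62 genes), fitting all samples together gave 36 and leaving out the day 20 control group 39, with 46 to 61 without 1 sample. In treated dogs (12 genes, 11 of them listed by stage alone), an FDR under 0.05 left 3 and 3, voom 4 and 4, DESeq2 gave 28 and 20, all samples together 30 and 23, and leaving out the day 20 treated group 22 and 18. Leaving out 1 treated sample gave 3 to 25 genes, and 3 to 19 of those listed by stage alone. The highest counts came without day 20 treated replicate 2. On day 20 (2 genes), an FDR under 0.05 left 0, DESeq2 gave 27, all samples together 23, no filter 4, filterByExpr 4 and leaving out 1 sample 0 to 19. DESeq2 called 6 genes on day 30 against 0. In treated dogs DESeq2 called 1 gene on day 10 over day 5 and 11 on day 30 over day 20, and all samples together called 4 in the latter, against 0 by edgeR. With a replicate block the counts were 44 in control dogs, 10 and 8 in treated dogs and 0 on day 20, where same-numbered samples shared only a number. Leaving out the day 20 group of an arm was chosen after seeing the data. No share of all genes was recorded for settings other than the main edgeR fits and DESeq2. The 122 log2 fold changes of named genes followed were only those with an unadjusted P under 0.05 in the main edgeR fit. Of these 122, 0 reversed without 1 sample and 0 under other settings. Differences chosen by such a P seldom change sign, so these counts do not bear on named genes with smaller differences. Groups of 3 or 4 animals and genes of a few CPM limit what could be called.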
